A study of Drosophila melanogaster with 30 samples.

Results

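The mitochondrial genome of Drosophila melanogaster carries 37 genes whose FlyBase symbol starts with mt:, and these were the genes examined, out of 17807 in the count table. They comprised 13 protein-coding genes, 2 rRNA genes and 22 tRNA genes. The replication origin, mt:ori, also has an mt: symbol but is annotated as a pseudogene, had 0 counts in all libraries and was left out. The flies were whole adult Canton S females, a wild-type laboratory strain, in pools of 6. They were cooled or heated at 0.25°C per minute to 4, 10, 34 or 37°C, or stayed at 25°C as controls. The sample records give a hold of 5 minutes at 34 and 37°C and of 0 minutes at 4 and 10°C, whereas the study's methods place the holds at 4 and 37°C. Each temperature had 3 replicates of a polyA+ library, selected for poly(A) tails, and 3 of a library depleted of rRNA (rRNA−), 30 libraries in all. Total RNA was used for both types, but the sources used here do not state that libraries with the same replicate number share their RNA. The 15 pairs of the same temperature and replicate number are called pools below. Over all genes, the deviations of the paired libraries from their group means had correlations of −0.306 to 0.453 (mean 0.107), and 6 of the 15, among them all 3 at 37°C, were not above 0.1.

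Mitochondrial DNA is transcribed from both strands into long precursors that are cut apart, largely at the tRNAs that lie between the other genes. The mRNAs encode subunits of the respiratory chain (ND, Cyt-b and Co genes) and of ATP synthase (ATPase genes), and most receive short poly(A) tails. The rRNAs, mt:lrRNA (16S) and mt:srRNA (12S), form the mitochondrial ribosome, and in animals the large one is known to be adenylated too. Flight muscle is especially rich in mitochondria, and eggs also store large numbers of them.

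The equalized counts, in which polyA+ reads were cut to 85 bp and reduced in number to match the usable reads of the pool's rRNA− library, totalled 2188773 to 5925256 per polyA+ library and 2067003 to 5541348 per rRNA− library. Nuclear rRNA had been largely taken out of this table, with 0.00922 to 0.563% of the counts left in the rRNA− libraries. Mitochondrial rRNA had not been taken out. In the rRNA− libraries it held 691009 equalized counts, against 691033 in the table made from all reads. Whether the depletion probes of the rRNA− kit target mitochondrial rRNA is not given in the sources used here. Of the polyA+ libraries, 5 stood apart (10°C replicate 2, 34°C replicates 2 and 3, 37°C replicates 1 and 2). Histone genes took 0.00173 to 0.00476% of their full counts, against 0.0144 to 0.024% in the other 10. The summed level of 6 flight muscle markers was 14340 to 21500 CPM (the usual counts scaled to the library total) in these 5 and 1830 to 4205 CPM in the others, while 9 egg chamber markers summed to 818 to 16290 CPM and to 19940 to 41650 CPM, respectively. The rRNA− libraries had 6562 to 11200 CPM of the muscle and 13470 to 24540 CPM of the egg chamber markers. In the rRNA− library of 4°C replicate 3, nuclear rRNA genes held 8.58% of the full counts, against 34.0 to 55.7% in the other 14. Markers of male flies summed to at most 0.849 CPM in any library, and 5 of these 10 genes were at 0 throughout. In whole flies, fewer cells of a type and less RNA per cell cannot be told apart.

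None of the 22 tRNA genes had a count in any library of either type. They are 62 to 72 bp long, 14 on the plus and 8 on the minus strand, and so shorter than the 85 bp reads. The same held for the rest of the annotation, since 0 of the 525 genes shorter than 85 bp and 0 of the 290 nuclear tRNA genes had an equalized count. The shortest gene with a count was 85 bp long, and in the polyA+ counts from 150 bp reads it was 151 bp long. The 0 counts therefore carry no information on the level of tRNAs. All 15 longer genes had counts in rRNA− libraries.

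Per length, mitochondrial mRNA levels covered several orders of magnitude, although genes of a strand share precursors. In rRNA− libraries, mt:CoI (cytochrome c oxidase subunit I, 1474 to 3009 of the mitochondrial genome in dm6, plus strand, 1536 bp) had the highest mean of the mRNA genes, 4925 ± 1278 CPM per kb (SD, n = 15). It was followed by mt:CoIII (4736 to 5524, plus strand) with 4420 ± 1733 CPM per kb. These neighbours in the order did not differ beyond their spread. Next came mt:Cyt-b (cytochrome b of complex III) with 2283 ± 524 CPM per kb, mt:ND1 (a complex I subunit, minus strand) with 2159 ± 850 CPM per kb and mt:CoII with 1658 ± 472 CPM per kb. The lowest were mt:ND4L with 7.42 ± 2.93 CPM per kb, mt:ND2 with 5.78 ± 1.67 CPM per kb and mt:ND6 with 4.01 ± 2.88 CPM per kb, all 3 of them subunits of complex I. Reads for these 3 genes were few, at most 39 counts per rRNA− library.

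**Figure D1:**
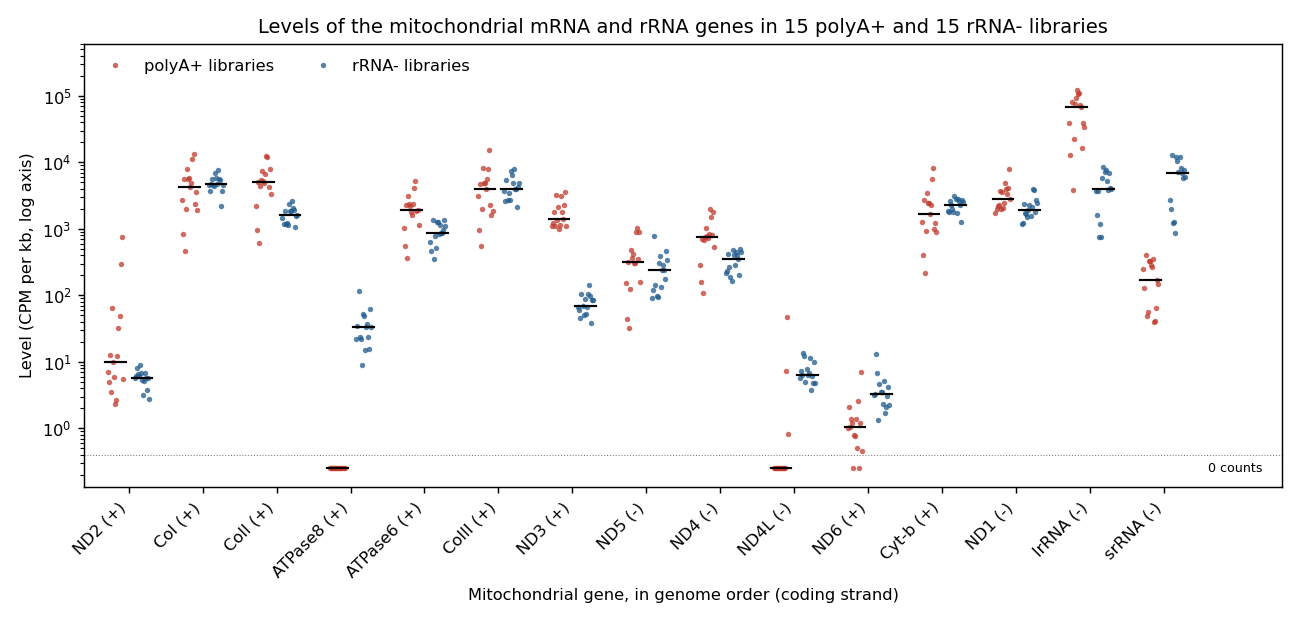
Level in CPM per kb (log axis) of the 13 mRNA and 2 rRNA genes of the mitochondrial genome in genome order, one point per library and a black line at the median of 15 libraries. Libraries with 0 counts lie under the dotted line. mt:ND3 lies higher in all polyA+ libraries than in any rRNA− library, and mt:ATPase8 and mt:srRNA lie lower. How many of all genes separate the types in this way was not determined.

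The order of the mRNA genes was alike in the libraries with poly(A) selection, but the spread over libraries was wider. Spearman's rho was 0.819 across 13 genes, which are not independent and share libraries. It compared each gene's mean percent of a library's mitochondrial mRNA reads per kb, not the CPM per kb given here. In polyA+ libraries mt:CoII came first with 5510 ± 3439 CPM per kb, then mt:CoI with 4828 ± 3677 CPM per kb and mt:CoIII with 4513 ± 3768 CPM per kb, differences well within the spread. mt:ND1 had 3276 ± 1626 and mt:Cyt-b 2315 ± 2114 CPM per kb. mt:ND3 had 1823 ± 866 CPM per kb, against 77.3 ± 28.0 CPM per kb in rRNA− libraries. Among all genes, ranked by mean CPM without regard to length, mt:lrRNA ranked 1 and mt:CoI ranked 2 in polyA+ libraries, and in rRNA− libraries mt:CoI ranked 5, mt:lrRNA ranked 6 and mt:srRNA ranked 8.

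The first comparison asked how the library type alters the measured mitochondrial transcripts. All mitochondrial genes together took 0.993 to 18.5% of the polyA+ counts (median 13.1%) and 1.56 to 4.62% of the rRNA− counts (median 2.98%). The mRNA genes took 2.44% ± 1.51 of the polyA+ counts and 1.84% ± 0.461 of the rRNA− counts (SD, n = 15). Within a pool, the polyA+ share was higher by 0.606 ± 1.38 percentage points, in 11 of 15 pools, and this did not pass a two-sided exact sign-flip test (p = 0.114, also after Benjamini-Hochberg adjustment over the 4 values tested). Since the pairing of the libraries is not certain, all 4 values were also tested without it, over all arrangements of the library types within each temperature, a test chosen after seeing the data, and none changed its side of the threshold (exact p = 0.0858 for the mRNA share). Of the nuclear counts alone the mRNA share was higher by 0.908 percentage points (exact p = 0.038), and without the 5 pools whose polyA+ library stood apart the difference was 0.036 percentage points (exact p = 0.896). The rRNA genes, in contrast, took a larger share of the polyA+ counts in 15 of 15 pools, by 6.84 ± 4.66 percentage points (exact sign-flip p = 6.1e-05, the smallest the 15 pools can give, adjusted p = 0.000122). The library types also differ in RNA amount (0.8 µg for polyA+, 0.3 µg for rRNA−), sequencing instrument and the length of the raw reads, and these cannot be told apart.

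The rRNA genes moved in opposite directions between the library types. mt:lrRNA (FBgn0013686, 12735 to 14058, minus strand, 1324 bp) had 3866 to 121080 CPM per kb in polyA+ libraries (median 67102) and 751 to 8413 CPM per kb in rRNA− libraries (median 3980). It was higher in the polyA+ library of every pool. mt:srRNA (FBgn0013688, 14131 to 14916, minus strand, 786 bp), which lies 72 bp away on the same strand, had 40.4 to 402 CPM per kb in polyA+ libraries (median 168) and 854 to 12966 CPM per kb in rRNA− libraries (median 6894). It was lower in the polyA+ library of every pool, and the ranges did not overlap. What share of all genes had no overlap between the types was not determined. In edgeR's quasi-likelihood fit of all 30 libraries, mt:lrRNA was 18.9-fold higher in polyA+ libraries (log2 difference 4.24, SE 0.312, adjusted p = 3.58e-11) and mt:srRNA 22.4-fold lower (log2 difference −4.49, SE 0.382, adjusted p = 3.95e-10).

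The ratio of the rRNA genes within a library needs no scaling between libraries. Reads per kb of mt:lrRNA were 78.6 to 1803 times those of mt:srRNA in polyA+ libraries (median 256), with the highest values, 1803 and 1624, in 34°C replicates 2 and 3. In rRNA− libraries the ratio was 0.282 to 1.35 (median 0.665), the lowest being that of 4°C replicate 3, the library of low nuclear rRNA. Over the 15 pools the log2 ratio differed between the types by 8.72 ± 1.4 (SD), a 422-fold difference, in the same direction in 15 of 15 pools (exact sign-flip p = 6.1e-05, adjusted p = 0.000122). Without the 5 pools whose polyA+ library stood apart it differed by 8.26 (exact p = 0.00195, the smallest that 10 pools can give).

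Of the 15 genes tested between the types, 10 passed an adjusted p of 0.05 and a 2-fold difference. 6 were higher in polyA+ libraries, beside 17.2% of all 10103 genes tested, and 4 were lower, beside 26.5%. Beside mt:lrRNA, the higher ones were all mRNA genes. mt:ND3 (5608 to 5961, plus strand, 354 bp), a complex I subunit, had 350 to 1272 CPM in polyA+ libraries (median 501) and 13.5 to 51.1 CPM in rRNA− libraries (median 24.6). For mt:ND3 too the ranges did not overlap, without a known share of all genes beside it. Its difference of 31.4-fold (log2 4.97, SE 0.26, adjusted p = 1.43e-13, edgeR) was the largest of the increases. The other increases were those of mt:CoII (3.93-fold), mt:ND4 (3.01-fold), mt:ATPase6 (2.87-fold) and mt:ND2, whose value depended on the libraries described further on. mt:ND1 was 0.97 higher on the log2 scale (SE 0.178, adjusted p = 3.35e-05), short of a 2-fold difference, and mt:ND5, the longest of the mRNA genes (1717 bp), was 0.82 higher (SE 0.357, adjusted p = 0.0427). mt:CoI, mt:CoIII and mt:Cyt-b, which are among the most abundant, differed by 0.15 (SE 0.26), 0.19 (SE 0.253) and 0.10 (SE 0.263) on the log2 scale, with adjusted p from 0.509 to 0.75. All genes tested had a median log2 difference of 0.03 and the mRNA genes of 0.82. With scaling to library totals in place of TMM these medians were −0.33 and 0.49, a shift that applies to all genes alike. Without the 5 polyA+ libraries that stood apart they were −0.06 and 0.39, so the size of the mRNA median depended on those libraries.

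The lower ones, beside mt:srRNA, were mt:ATPase8, mt:ND4L and mt:ND6. Each of these mRNA genes lies directly upstream of another mRNA gene on the same strand. mt:ATPase8 (3907 to 4068, 162 bp) overlaps mt:ATPase6 by 7 bp, mt:ND4L (9545 to 9835, minus strand, 291 bp) overlaps mt:ND4 by 1 bp, and mt:ND6 (9971 to 10495, 525 bp) ends 3 bp before mt:Cyt-b. In mammals the first of these pairs are known to be read from shared transcripts. mt:ATPase8 had 0 counts in all 15 polyA+ libraries and 3 to 71 counts in rRNA− libraries (median 17). With a floor of 3 counts per library for the polyA+ libraries, it was at least 7.32-fold lower there. mt:ND4L was at 0 in 12 of 15 polyA+ libraries, with counts only at 37°C, and had 3 to 12 counts in rRNA− libraries. Its fitted log2 difference of −4.32 (SE 0.722, adjusted p = 4.89e-05) depends on the prior count. mt:ND6 had 0 to 15 counts in polyA+ and 2 to 26 counts in rRNA− libraries (log2 difference −1.12, SE 0.424, adjusted p = 0.0203). Of the partners, mt:ATPase6 and mt:ND4 were higher with poly(A) selection, and mt:Cyt-b did not pass the test. In the rRNA− libraries mt:ATPase8 stood at 36.6 CPM per kb and mt:ATPase6 at 915 CPM per kb, and mt:ND4L and mt:ND4 at 7.42 and 335 CPM per kb. These levels divide by the full gene length without an allowance for the 85 bp reads, which weighs most on short genes. How reads that span both genes of a pair were counted is not stated, so the split between partners is uncertain.

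By strand, 9 mRNA genes lie on the plus strand and 4 (mt:ND1, mt:ND4, mt:ND4L and mt:ND5) on the minus strand, together with both rRNA genes. Both kits mark the strand. In rRNA− libraries the minus-strand mRNA genes had 0.184 to 0.466 times the reads per kb of the plus-strand genes (median 0.250). In polyA+ libraries the ratio ran from 0.207 to 1.51 (median 0.384). The mean log2 ratio was higher in polyA+ libraries by 0.66 ± 0.99 (SD, n = 15), in 11 of 15 pools (exact sign-flip p = 0.0223, adjusted p = 0.0297), and by 0.83 without the 5 pools whose polyA+ library stood apart (exact p = 0.0137). Reads were summed over the genes of a strand, so that abundant genes weigh most. In every library mt:ND1 had the most reads of the minus-strand mRNA genes. Leaving out mt:ATPase8 and mt:ND4L, which had almost no polyA+ counts, also gave 0.66. This is no check, since such few reads cannot move the sums and gene lengths cancel between the types.

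**Figure D2:**
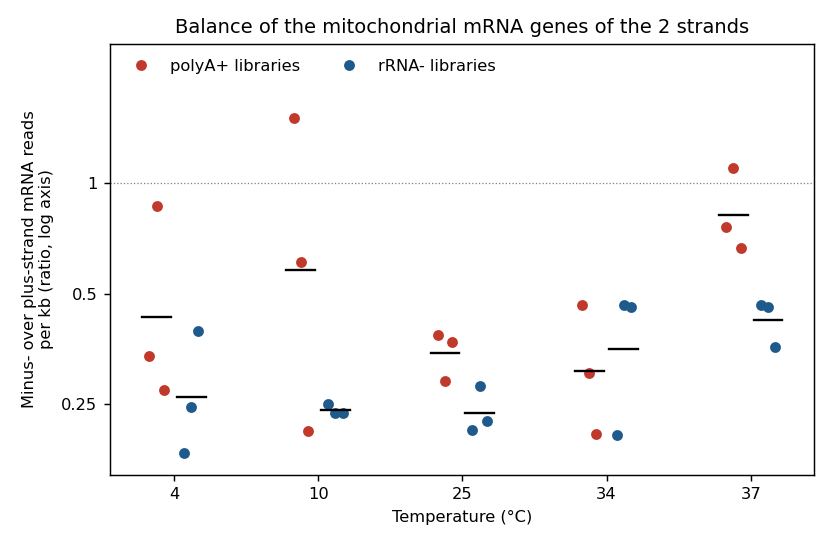
Reads per kb of the 4 minus-strand mRNA genes divided by those of the 9 plus-strand mRNA genes (ratio, log axis) at each temperature, one point per library and a black line at the geometric mean of 3. At 37°C all libraries of a type lie above those of the same type at 25°C, and the highest point is the polyA+ library of 10°C replicate 1 with 1.51.

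The temperature comparisons asked which mitochondrial transcripts differ from 25°C after cold or heat. With 3 pools against 3, a single value cannot reach a two-sided exact permutation p under 0.1. At 37°C the minus to plus ratio was 0.759, 1.10 and 0.664 in polyA+ libraries, against 0.384, 0.288 and 0.368 at 25°C. In rRNA− libraries it was 0.464, 0.459 and 0.356 at 37°C, against 0.211, 0.279 and 0.224 at 25°C. The groups did not overlap in either type (exact permutation p = 0.1 each). The polyA+ values 0.759 and 1.10 were those of replicates 1 and 2, which are among the 5 libraries that stood apart. Replicate 3, with 0.664, is not. The polyA+ library of 10°C replicate 1, also not among the 5, had 1.51. The ratio is weighted to the abundant genes and does not show that all genes of a strand moved alike. The fitted log2 differences of mt:ND1 at 37°C were 1.18 in polyA+ and 0.43 in rRNA− libraries. Those of mt:lrRNA, on the same strand, were −1.52 and −0.37, and none of these 4 passed the test. At 34°C, 2 of 3 rRNA− libraries were also above all of the 25°C libraries, with 0.466 and 0.458, and 1 was below them with 0.205.

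No mRNA gene but mt:ND2 passed the test at any temperature. mt:CoI had 3596, 5403 and 2916 CPM in polyA+ libraries at 37°C and 8560, 8861 and 6556 CPM at 25°C. The 3 values at 37°C lay under all of those at 25°C. In rRNA− libraries the values were 3406, 5750 and 7057 CPM at 37°C and 10477, 8865 and 7298 CPM at 25°C, again with no overlap. Of all genes with a mean count of at least 10, 38.5% in polyA+ and 29.1% in rRNA− libraries lay in the same way below 25°C at 37°C. The fitted log2 differences of mt:CoI were −0.68 (SE 0.717, adjusted p = 0.529) and −0.58 (SE 0.23, adjusted p = 0.184). mt:ND1, on the other strand, had 1994, 3776 and 3635 CPM in rRNA− libraries at 34°C and 1778, 2125 and 1472 CPM at 25°C, which overlapped (log2 difference 0.93, SE 0.282, adjusted p = 0.102).

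In the polyA+ libraries, 12 mitochondrial genes passed the filter on low counts. At 4°C 0 of 12 passed the test, at 10°C 0 and at 34°C 0, beside 0%, 0% and 0.0864% of the 9257 genes tested (edgeR). At an unadjusted p under 0.05 there were 0, 2 and 1, and DESeq2's Wald test called 0 at each. The median log2 difference of the 10 mRNA genes was negative in the cold (−0.75 at 4°C and −0.65 at 10°C) and positive in the heat (1.09 at 34°C and 0.38 at 37°C), beside medians of −0.01, 0.10, 0.02 and −0.18 over all genes. The count of negative values among the 10 was 9, 7, 0 and 3, and 5 at 37°C with scaling to library totals. The positive median at 37°C was not kept without the libraries that stood apart. It was −0.04 without 37°C replicate 2. Without all 5 of these libraries, which left only replicate 3 at 37°C, it was −0.50 with 8 of 10 genes negative. At 34°C the median without the 5 was 0.57 with 0 negative, but only replicate 1 was left. Its TMM factor among the 15 polyA+ libraries was 0.758, against 0.989 to 1.19 at 25°C. In CPM, before that scaling, mt:CoI and mt:ND5 lay below their 25°C means there and the other tested mRNA genes above. None of the differences of single genes from 25°C passed except that of mt:ND2. The flight muscle markers summed to 1830, 14340 and 18490 CPM at 34°C, and the mRNA share was 2.79, 4.99 and 6.09% in the same order. At 37°C they summed to 21500, 18720 and 3337 CPM, beside shares of 1.72, 2.83 and 1.25%. At 10°C they summed to 2857, 17280 and 3484 CPM, beside 0.477, 1.66 and 3.21%. The libraries thus ranked alike by both values at 34°C but not at 37 or 10°C. The part of the muscle markers in the result was not tested.

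In the rRNA− libraries, 15 genes were tested. 0 passed at 4, 34 or 37°C, beside 0.0103%, 0.823% and 2.55% of the 9718 genes tested (edgeR). At an unadjusted p under 0.05 there were 2, 2 and 1, and the Wald test called 0 at each. The median log2 difference of the 13 mRNA genes was −0.29 at 4°C and −0.33 at 10°C, and in the heat 0.13 at 34°C and 0.06 at 37°C, the last being −0.08 with scaling to library totals and −0.28 without 37°C replicate 2. The highest and lowest mRNA share of counts were 2.66 and 1.01% in rRNA− libraries and 6.09 and 0.477% in polyA+ libraries.

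At 10°C both rRNA genes fell in rRNA− libraries, the 2 genes called there, beside 2.11% of all genes tested. mt:lrRNA had 1008, 1567 and 995 CPM at 10°C and 7688, 11139 and 9610 CPM at 25°C. mt:srRNA had 953, 993 and 671 CPM at 10°C and 9314, 8341 and 5660 CPM at 25°C. All 3 libraries at 10°C lay far below all 3 at 25°C for both genes. mt:lrRNA was 7.99-fold lower (log2 difference −3.00, SE 0.374, adjusted p = 0.00733) and mt:srRNA 8.89-fold lower (log2 difference −3.15, SE 0.618, adjusted p = 0.0178, edgeR). Together the rRNA genes took 0.206% ± 0.0456 of the counts at 10°C (SD, n = 3), against 1.73% ± 0.212 of those in the controls, an 8.37-fold difference in share (exact permutation p = 0.1).

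The fall of the rRNA genes was not shared by the mRNA genes to the same extent. The mRNA share was 1.54% ± 0.133 at 10°C and 2.17% ± 0.417 at 25°C in the same libraries, also with no overlap (exact permutation p = 0.1). mt:CoII passed the adjusted p alone (log2 difference −0.77, adjusted p = 0.0316), with 807, 838 and 792 CPM at 10°C and 1636, 1275 and 1248 CPM at 25°C. mt:ATPase6 (log2 difference −1.04), mt:CoIII (−1.06) and mt:ND4 (−0.90) also lay below all 25°C values. Their adjusted p ran from 0.0891 to 0.118 (edgeR). mt:ND5 had −1.32 (SE 0.74) but overlapped. With mt:CoII and the rRNA genes, 6 of 15 genes lay below all 25°C values, beside 18.1% of all genes in these libraries. Of the 13 mRNA genes, 9 had a negative log2 difference. The ratio of mt:lrRNA to mt:srRNA per kb was 0.628, 0.937 and 0.880 at 10°C and 0.490, 0.793 and 1.01 at 25°C, which overlapped. Nuclear rRNA genes took 43.2 to 53.7% of the full counts of the rRNA− libraries at 10°C and 42.8 to 52.1% at 25°C, and the muscle markers summed to 7770 to 9586 and 6921 to 11200 CPM. These ranges overlapped. The yolk protein genes (Yp1, Yp2 and Yp3) summed to 32280 to 44460 CPM at 10°C and to 22560 to 26490 CPM at 25°C, with no overlap, and the egg chamber markers to 22510 to 24540 and 16760 to 22510 CPM. The part of these in the result was not tested. Without the 25°C replicate 3 library, and also in one fit of all 30 libraries, 0 mitochondrial genes passed the test at 10°C, although the log2 difference of mt:lrRNA was between −3.22 and −2.86 with any library left out.

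At 4°C neither rRNA gene passed the test in rRNA− libraries. mt:lrRNA had 4913, 2154 and 4833 CPM, all under the 25°C values, as were 4.3% of all genes, and above the 10°C values (log2 difference −1.27, SE 0.352, adjusted p = 1). mt:srRNA had 2163, 1562 and 10191 CPM, the last in replicate 3, the library of low nuclear rRNA, in which mt:lrRNA was not high. Without that library 1 gene, mt:srRNA, passed the test at 4°C (log2 difference −2.08, adjusted p = 0.0297).

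**Figure D3:**
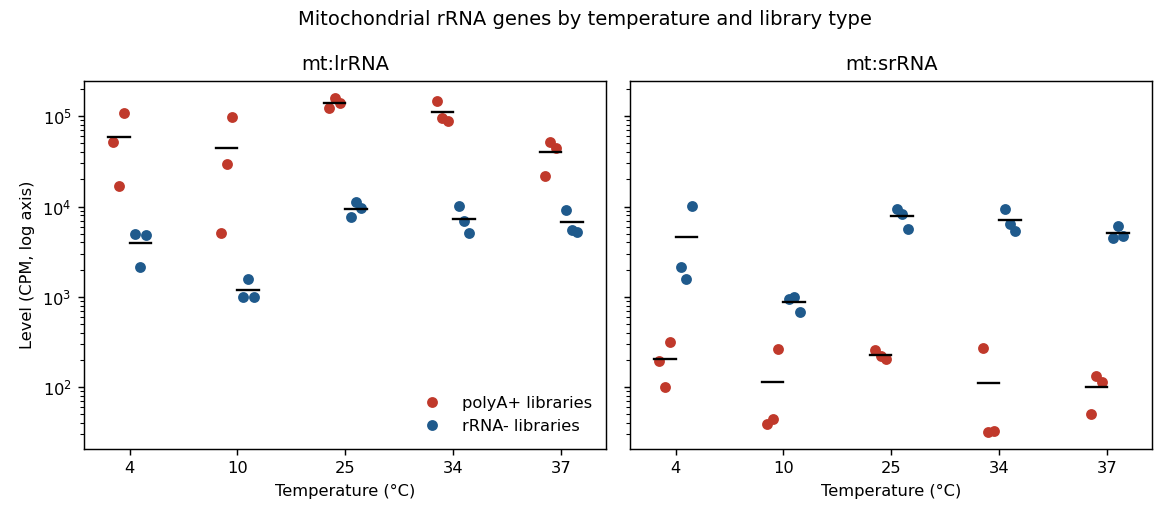
Level in CPM (log axis) of mt:lrRNA and mt:srRNA at each temperature, one point per library and a black line at the mean of 3. The rRNA− libraries at 10°C sit between 671 and 1567 CPM for both genes, under all rRNA− libraries at 25°C, and the polyA+ libraries scatter widely in the cold.

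The polyA+ libraries at 10°C were spread too widely to be told from 25°C. mt:lrRNA had 5118, 29647 and 99098 CPM at 10°C and 124150, 160310 and 140680 CPM at 25°C (log2 difference −1.87, SE 0.767, adjusted p = 0.759). All 3 values were under those at 25°C, as were those of 4.09% of all genes, but far apart from each other. mt:srRNA had 38.7, 43.8 and 261 CPM, which overlapped with 256, 222 and 207 CPM at 25°C. The difference between the types in the response at 10°C did not pass for any of the 15 genes, and for mt:lrRNA it was 1.15 (SE 0.867, adjusted p = 1). mt:lrRNA was also under all of the 25°C values at 37°C, with 21792, 52440 and 45020 CPM (log2 difference −1.52, SE 0.759, adjusted p = 0.212), beside the 38.5% of all genes given above. At 4°C it lay under them too, with 51306, 16875 and 107850 CPM, as did 1.3% of all genes. The log2 difference there was −1.40 (SE 0.756), and it did not pass the test.

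**Figure D4:**
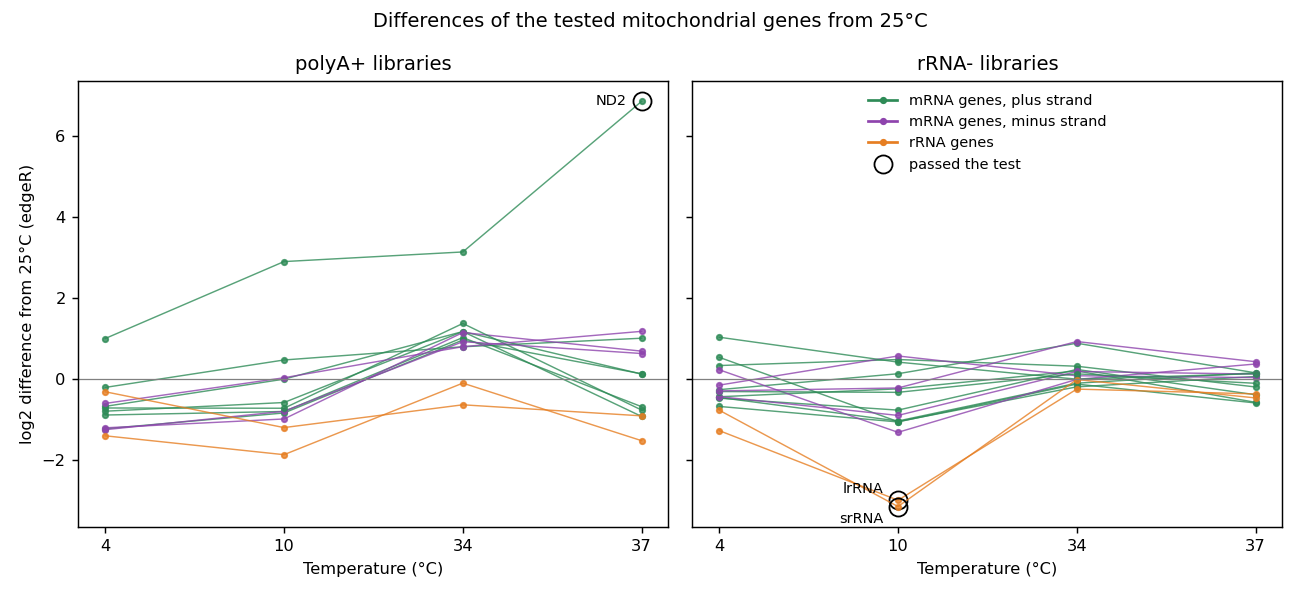
Fitted log2 difference from 25°C (edgeR) of each tested mitochondrial gene at 4, 10, 34 and 37°C, 12 genes in polyA+ and 15 in rRNA− libraries, with lines joining the values of a gene. Circles mark the genes that passed the test, mt:ND2 at 37°C in polyA+ libraries and both rRNA genes at 10°C in rRNA− libraries.

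At 37°C 1 of 12 genes, mt:ND2, passed in polyA+ libraries, beside 3.92% of all genes tested. mt:ND2 (FBgn0013680, 240 to 1263, plus strand, 1024 bp), a subunit of complex I, had 307, 763 and 5.60 CPM at 37°C and 6.08, 2.41 and 2.69 CPM at 25°C. Only 2 of 3 libraries were high, and the third lay within the range at 25°C. The fitted log2 difference was 6.87 (SE 1.48, adjusted p = 0.0282). The 5 polyA+ libraries that stood apart, which were at 10, 34 and 37°C, had 33.2 to 763 CPM of mt:ND2, and the other 10 had 2.41 to 12.8 CPM. What share of all genes separates these libraries in the same way was not determined, so the separation is not particular to mt:ND2 by these values. In the rRNA− libraries at 37°C, mt:ND2 had 3.90, 5.83 and 2.81 CPM, and over all 15 rRNA− libraries 2.81 to 9.19 CPM. Without the 5 libraries, which leaves 1 library at 37°C that is assumed to vary like the others, the log2 difference was 0.82 (adjusted p = 0.970). The increase of mt:ND2 with library type likewise went from 2.50 (SE 0.455) to 0.67 (adjusted p = 0.0123).

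mt:ND4L was also counted mainly in 37°C replicates 1 and 2, though on few reads. It had 10, 55 and 1 counts in the polyA+ libraries at 37°C and 0 in the other 12, and it did not pass the filter on low counts there. The neighbour of mt:ND2 on the plus strand, mt:CoI, 210 bp away, had 3596 and 5403 CPM in 37°C replicates 1 and 2, but 17362 and 20351 CPM in 34°C replicates 2 and 3, the highest of all polyA+ libraries. Over the 5 libraries that stood apart it had 3006 to 20350 CPM and over the other 10 it had 717 to 12280 CPM, so that it was not uniformly low or high in them. No mitochondrial gene passed the test of a difference between types in the response: 0 of 15 at any of 4, 10, 34 and 37°C, beside 0%, 0%, 0.0099% and 0.0099% of 10103 genes (edgeR, adjusted p alone), with 0, 0, 0 and 2 at an unadjusted p under 0.05. The 2 at 37°C were mt:ND2 (7.20, SE 1.49, adjusted p = 0.151) and mt:ND4L (7.85, SE 1.80, adjusted p = 0.248), which the Wald test called. The part of the muscle, egg chamber and histone differences in these values was not tested.

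**Figure D5:**
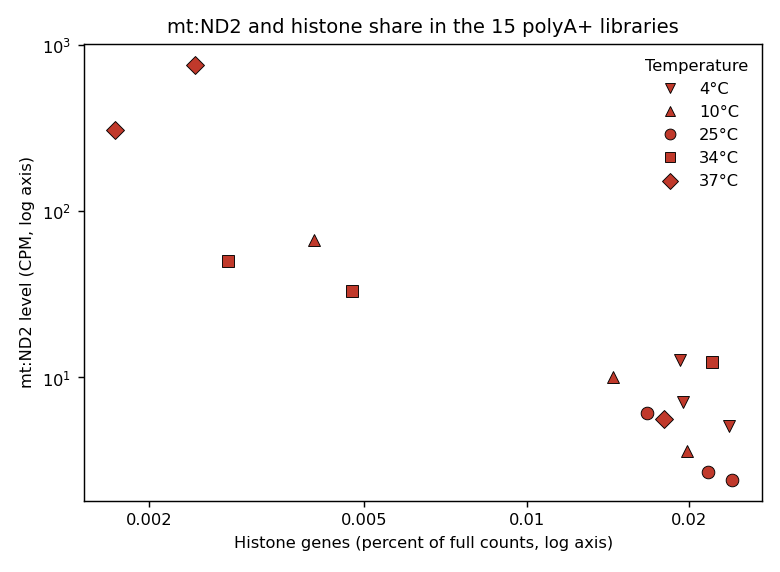
mt:ND2 level in CPM against the percent of full counts in histone genes (both log axes) in the 15 polyA+ libraries, one point per library with a symbol for each temperature. The 5 libraries with at most 0.00476% of histone counts have 33.2 to 763 CPM of mt:ND2 and the other 10 have 2.41 to 12.8 CPM. How many other genes separate them in this way was not determined.

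Whether a library rich in mitochondrial reads is paired with a rich library of the other type was asked over the 15 pools. For the log2 share of counts in mt:lrRNA, Pearson's r was 0.606 (permutation p = 0.0156, adjusted over 2 relations 0.0312) and Spearman's rho was 0.607 (permutation p = 0.0192, adjusted 0.0384). Without the 2 pools farthest from the median of the rRNA− share, both at 10°C, r was 0.660. After each temperature's mean was removed, r was 0.296, which was not tested, so that part of the relation lay between temperatures. The permutations ran over all 15 pools without regard to temperature. Their p-values therefore include differences between temperatures and do not show that libraries are paired within one. For the mRNA genes r was 0.470 (permutation p = 0.0755) and rho was 0.475 (permutation p = 0.0753), r was 0.548 without the 2 farthest pools, and within temperatures it was 0.111. Of the nuclear counts alone r was 0.506 (permutation p = 0.0538) and rho was 0.532 (permutation p = 0.0436). The lowest polyA+ share of all mitochondrial genes, 0.993% in 10°C replicate 1, stood beside an rRNA− library of the same number that held 1.86%, the highest of the 3 rRNA− libraries at 10°C.

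The nuclear genes for mitochondrial transcription, replication and RNA turnover were read from a list of 23, all of which were tested. In none of the 8 temperature comparisons did any of the 23 pass the test, beside 0 to 3.92% of all genes tested. With shares this low, 0 of 23 does not set these genes apart. At 34°C in rRNA− libraries scu passed the adjusted p alone (log2 difference 0.73, adjusted p = 0.0481, edgeR). Between the library types, 5 were higher in polyA+ libraries, namely TFAM (log2 difference 1.53, SE 0.138), which packages mitochondrial DNA, mtTFB1 (1.80), mTerf5 (1.04), SLIRP2 (2.15), the relative of an RNA-binding partner of mitochondrial mRNAs, and scu (2.20), part of mitochondrial RNase P. RNaseZ, which cuts the ends of tRNAs, was lower (−1.12). These counts stand beside the 17.2% and 26.5% of all genes given above, and the median log2 difference of the 23 was 0.53.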

How the data were processed

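Whole-number gene counts were deposited by the authors without normalization. Per the study's methods and the submitters' processing notes, reads were aligned to dm6 (STAR 2.7.7a and Salmon 1.4.0 are named; which made the counts is not stated). Before deposit the authors removed most nuclear rRNA, trimmed polyA+ reads to 85 bp and equalized depth within a pool; the full counts were used for shares of histone and nuclear rRNA and as an alternative. Coordinates and lengths come from Ensembl release 115 (dm6). Members and lists were chosen with earlier results of these data known.

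Counts were tested with edgeR 4.0.16 (R 4.3.3): TMM, filterByExpr and robust quasi-likelihood fits, on the 15 libraries of a type for temperature and on all 30 for type and interaction. Calls needed a p adjusted by Benjamini-Hochberg over all genes tested of under 0.05 and a log2 difference of at least 1 (interaction: adjusted p alone). Standard errors are approximations from the F statistic. CPM are per library total, and levels between genes are CPM per kb of full gene length, with no allowance for the read length. Single values were compared over pools by all sign flips and between temperatures by exact permutation, both two-sided. The tRNA share was 0 throughout, so 4 of 5 planned values were adjusted together. Correlations used 100000 permutations (SciPy 1.17.1). All 13 mRNA and 2 rRNA genes were named, tRNA genes only if counted and nuclear genes only if called. The procedure was tested on simulated counts. Alternatives were other scalings, no filter, DESeq2 1.42.0, other tables, subsets, blocks and each library left out. The main edgeR p-values rest on the spread between libraries of a group, without a pool block. Those of the sign flips rest on the differences within pairs. Pairs rest on replicate numbers in the labels.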

Additional observations from a re-analysis of the deposited data

How the results depend on the processing

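Counts are of mitochondrial genes past the test, and causes were not tested. At 37°C in polyA+ libraries (1 gene) the count was 0 with library totals in place of TMM, 2 with DESeq2's Wald test, 2 with only the 6 libraries compared, 3 in one fit of all 30 libraries and, in a setting chosen after seeing the data, 0 without the 5 polyA+ libraries of low histone share. With 1 library left out it was 0 to 1, being 0 without any of the 25°C replicates or either of 37°C replicates 1 and 2. At 10°C in rRNA− libraries (2 genes) it was 4 with the Wald test, 0 in one fit of all 30 libraries and 0 to 2 with 1 library left out, being 0 without 25°C replicate 3 and 1 without 10°C replicate 1, 10°C replicate 3 or 25°C replicate 2. At 4°C and 34°C in rRNA− libraries it was 0 to 1 with 1 left out, reaching 1 without 4°C replicate 3 and 34°C replicate 1. For the interaction at 37°C the Wald test called 2, and leaving out libraries gave 0 to 2, the 2 being without the 37°C replicate 3 pool. Between library types 9 to 11 genes passed with any pool left out, and 9 without the 5 libraries.

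The mRNA share was higher in polyA+ libraries by 0.908 percentage points of nuclear counts (exact p = 0.038), by 1.51 of the full counts, where nuclear rRNA enters the denominator of the rRNA− libraries (exact p = 0.000183), and by 0.36 to 0.734 with 1 pool left out, passing without 10°C replicate 1. The other single values stayed on their side of the threshold, and so did the relation of mt:lrRNA between the libraries of a pool with nuclear counts as the denominator. For the mRNA genes rho passed there (0.532, permutation p = 0.0436) while r did not (0.506, permutation p = 0.0538). Calls of mt:ND1 and mt:ND6 between the types changed in 10 and 4 of 23 alternatives, since both lie near a 2-fold difference or the threshold.

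Replicate numbers did not pair samples across temperatures (mean correlation of deviations 0.003 in polyA+ and 0.009 in rRNA− libraries). A replicate block left the counts at 1 (37°C, polyA+) and 2 (10°C, rRNA−), and the pool as a block left 10 between the library types. Of the paired libraries of a pool, 9 of 15 had deviations correlated above 0.1. Without this pairing, the exact p was 6.25e-07 for the mitochondrial rRNA share and for the ratio of the rRNA genes, 0.00877 for the strand ratio and 0.0858 for the mRNA share. Counts of at most 71 per library limit mt:ATPase8, mt:ND4L, mt:ND6 and, outside the 5 polyA+ libraries, mt:ND2.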
